A study of Mus musculus with 6 samples.

Results

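The 39 mouse Hox genes encode the homeodomain transcription factors of the Hoxa, Hoxb, Hoxc and Hoxd clusters. They were close to silent in cells sorted from dental follicles of the lower jaw, a sort that also held strong enamel epithelium transcripts. Members were all rows of the estimated count table, 39 of 23107, whose symbol is Hox followed by a cluster letter and a number, so that antisense and host transcripts were left out. Of these, 32 had no count in any of 6 libraries. Hoxb2 was the only member with counts in all 6, and the other 6 members with any count had it in 1 or 2 libraries. All members together received 253 of 313024947 counts, a level of 0.808 CPM (counts-per-million, a count scaled by library size).

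RNA came from cells sorted for the red fluorescent protein tdTomato from dental follicles of mandibular molars at postnatal day 8, the follicle being the sac of loose connective tissue that encloses a developing tooth. The labels describe the sorted cells as PTHrP+, PTHrP being the secreted peptide encoded by Pthlh. In 3 Het-labelled libraries the genotype is given as Pth1r(+/-), and in 3 labelled KO as Pth1r(-/-), Pth1r being the receptor of PTH and PTHrP. The series text describes both as conditional, so the controls carry 1 altered copy, and no source used here names the strain or the promoter that drives the recombinase. The tamoxifen pulse is placed at day 3 by the series text and at day 8 by the sample descriptions. Whether the libraries came from separate animals is not stated, so p-values speak only to how far these libraries scatter, which may be technical scatter.

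Hox genes give cells their position along the body axis, with the order of genes on the chromosome matching the order of their domains from head to tail. Cranial neural crest cells that form the jaws and the mesenchyme of the teeth are known for a lack of Hox expression, while crest of the more posterior arches carries Hox genes, Hoxa2 in the second arch among them. Hoxa2 and Hoxb2 are active in the hindbrain and the second arch, and Hox proteins bind DNA together with cofactors of the Pbx, Meis and Pknox families. Whether follicle cells of the lower jaw keep this Hox-negative state is the question addressed here.

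Hoxb2 and its paralogue Hoxa2 are shown by their homeoboxes, the 180 coding bases of the DNA-binding homeodomain, because Hoxb2 carried most Hox counts and Hoxa2 had none. Both lie in exon 2 of 2 exons, at chr11:96352985-96353164 on the plus strand for Hoxb2 and chr6:52163411-52163590 on the minus strand for Hoxa2 (mm10, GENCODE M21 transcripts). Capitals mark the 46 positions at which the pair differs, an identity of 74.4%.
Hoxb2 homeobox: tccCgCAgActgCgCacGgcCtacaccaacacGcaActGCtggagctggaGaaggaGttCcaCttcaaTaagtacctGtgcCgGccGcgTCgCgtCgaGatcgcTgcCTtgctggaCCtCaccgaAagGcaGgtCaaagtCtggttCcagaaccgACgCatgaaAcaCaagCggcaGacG
Hoxa2 homeobox: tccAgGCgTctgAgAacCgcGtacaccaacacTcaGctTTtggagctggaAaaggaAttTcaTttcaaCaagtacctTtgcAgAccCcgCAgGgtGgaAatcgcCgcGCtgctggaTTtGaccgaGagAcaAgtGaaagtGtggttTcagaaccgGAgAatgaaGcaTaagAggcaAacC
Over the whole Hoxb2 transcript of 1628 bases, the longest run of bases identical to a transcript of another member was 28 bases, shared with Hoxb3 and Hoxd3. Homeobox identity to Hoxb2 ranged from 51.1% to 77.8% over the other 38 members, with Hoxd3 the closest. Hoxd3 and Hoxa3, the closest members by homeobox, had no count, and Hoxb3 had 10.

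Upstream sequence is shown for Hoxa2, at 0 in all libraries, and Hoxd8, with counts in 2 libraries. These are the 250 bases before each start in RefSeq (GRCm38.p6), with CpG dinucleotides, the sites of DNA methylation, in capitals. The Hoxa2 window is chr6:52164832-52165081 on the minus strand and the Hoxd8 window chr2:74704365-74704614 on the plus strand, and neither overlapped an annotated UTR.
Hoxa2 promoter: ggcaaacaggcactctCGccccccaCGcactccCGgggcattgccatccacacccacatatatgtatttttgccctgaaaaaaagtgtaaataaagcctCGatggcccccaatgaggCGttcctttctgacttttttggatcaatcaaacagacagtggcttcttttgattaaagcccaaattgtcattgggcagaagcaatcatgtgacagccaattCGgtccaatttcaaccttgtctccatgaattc
Hoxd8 promoter: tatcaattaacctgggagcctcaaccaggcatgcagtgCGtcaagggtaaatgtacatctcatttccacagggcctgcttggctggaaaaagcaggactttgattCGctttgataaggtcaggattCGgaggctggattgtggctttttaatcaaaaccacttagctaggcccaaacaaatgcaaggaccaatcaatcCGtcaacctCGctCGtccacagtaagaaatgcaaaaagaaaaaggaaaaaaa
Both windows held 6 CpG. Of 39 members, 22 matched the RefSeq promoter table. Their 300-base windows (250 bases before to 50 after the start) held a median of 13.5 CpG, from 4 to 45. Over 27025 genes the median was 7, with quartiles of 3 and 21, so the member median lay between these quartiles. Hoxd8 was the only member with counts among these 22, so the shares below describe almost only members at 0. The Pbx and Hox motif TGATNNAT was found on either strand in 13.6% of the member windows (Hoxa2, Hoxb1 and Hoxb8) and in 9.04% of all. The Meis motif TGACAG was found in 9.09% of them (Hoxa2 and Hoxa3) and in 19.3% of all.

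The libraries held 34365670 to 66772215 counts. Pth1r, the targeted gene, was not lower in the KO-labelled libraries. It was at 367, 283 and 343 CPM (scaled by the TMM method here and below) in the Het-labelled libraries. In KO-labelled ones it was at 951, 602 and 466.5 CPM, with an adjusted p of 0.742 in edgeR's quasi-likelihood test. These counts cover the whole gene, so loss of a part of it was not tested. For these reasons every direction is given by label only, KO-labelled against Het-labelled. Het replicate 2 stood apart on the first principal component, which held 38.6% of the variance. The 11 dental follicle markers listed were all detected, Wif1 at 1346 ± 370 among them, Igfbp5 at 653 ± 225 and Acta2 at 359.6 ± 71.8 FPKM (FPKM, a level scaled by transcript length and library size, mean ± SD, n = 6). The enamel epithelium genes Amelx and Ambn were higher still, at 3942 ± 978 and 1907 ± 829 FPKM. The Hox levels are therefore those of the sorted cells as a whole, not of follicle cells alone.

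Silence was found in every cluster. No count was present for 10 of 11 Hoxa, 8 of 10 Hoxb, 6 of 9 Hoxc and 8 of 9 Hoxd genes. Among all 23107 rows, 24.2% were at 0 in all libraries, and 21.1% of the 18399 rows with a protein-coding symbol in GENCODE M21, against 82.05% of the Hox genes. Counts in all 6 libraries were found for 64.4% of those protein-coding rows and for 1 Hox gene (2.56%). By position along the clusters, 9 of 12 anterior genes (paralogues 1 to 4), 8 of 11 middle genes (5 to 8) and 15 of 16 posterior genes (9 to 13) were at 0.

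The silent genes of the Hoxa cluster were Hoxa2, Hoxa3, Hoxa4, Hoxa5, Hoxa6, Hoxa7, Hoxa9, Hoxa10, Hoxa11 and Hoxa13, which run from the second-arch selector Hoxa2 to the distal limb gene Hoxa13. In the Hoxb cluster Hoxb1, Hoxb4, Hoxb5, Hoxb6, Hoxb7, Hoxb8, Hoxb9 and Hoxb13 were at 0. In the Hoxc cluster these were Hoxc4, Hoxc5, Hoxc9, Hoxc10, Hoxc11 and Hoxc12, and in the Hoxd cluster Hoxd1, Hoxd3, Hoxd4, Hoxd9, Hoxd10, Hoxd11, Hoxd12 and Hoxd13. For each of these 32 genes a count of 0 allows up to 3 counts over all libraries, or 0.00964 CPM. Within 1 library the limit was 0.0477 to 0.0834 CPM. Amplified reads without molecular identifiers are not independent molecules, so these limits cover counting error only. They do not cover reads that counting may leave out where genes overlap, as Hoxd3 and Hoxd4 do on the plus strand.

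Hoxb2, an anterior gene of hindbrain segments and second-arch crest, received 171 counts, 67.6% of all Hox counts. Het replicates 0 to 2 held 8, 16 and 16 of its counts, and KO replicates 0 to 2 held 85, 14 and 32. In CPM these were 0.127, 0.441 and 0.445 against 1.38, 0.228 and 0.602. The groups overlapped, since KO replicate 1 lay below 2 of the 3 Het-labelled libraries, and KO replicate 0 was the highest library. Hoxb2 was the only member to pass the filter on low counts and so the only one tested in the fit over all genes.

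The Hoxb2 means were 0.338 ± 0.182 CPM in the Het-labelled libraries and 0.737 ± 0.588 CPM in KO-labelled ones (SD, n = 3 each). On the log2 scale the difference came to 1.13 (standard error 1.12), and the adjusted p in edgeR's quasi-likelihood test was 0.971 (unadjusted p = 0.340). Permuting the labels of the 6 values on the log2(CPM + 0.1) scale, an exact and two-sided test, gave p = 0.4, where 3 against 3 libraries cannot go below 0.1. The difference did not exceed the spread between replicates, and without KO replicate 0 the log2 value was 0.30 (adjusted p = 0.9998 in edgeR), and without Het replicate 0 it was 0.71 (adjusted p = 0.917). In bulk libraries fewer cells with a transcript and less of it per cell cannot be told apart.

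Strand limits what the Hoxb2 counts hold. Hoxb2 (chromosome 11, 96350525 to 96354012, plus strand) has 3488 annotated exon bases, of which 953 are shared with exons of the antisense RNA Hoxb3os on the minus strand. Hoxb3 shares 2250 of its 4251 exon bases with the same antisense RNA. Sense and antisense reads could not be told apart for this pair. The strand setting of the counting is also not given in the sources used here. Some members at 0 also share exon bases with antisense genes, among them Hoxa3 (1529 bases), Hoxa11 (800) and Hoxa7 (586). Their limit is a different one, since counting may leave out reads where genes overlap. Hoxc6, Hoxc8, Hoxc13 and Hoxd8 share no exon base with an annotated antisense gene.

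**Figure D1:**
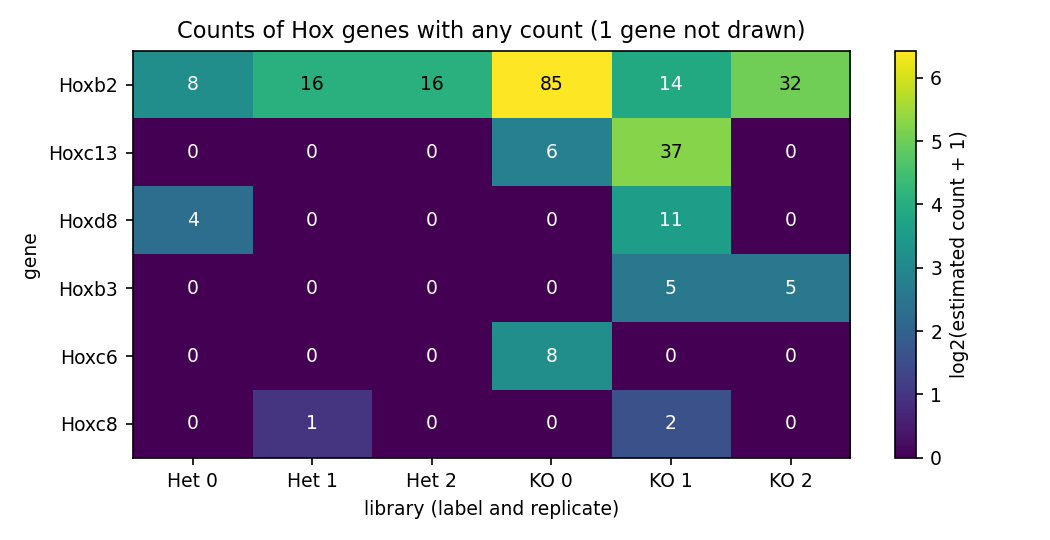
Estimated counts of 6 of the 7 Hox genes with any count (rows) in each of the 6 libraries (columns), printed in the cells and coloured by log2(count + 1). Hoxb2 has counts in every library, from 8 to 85, and no other gene has counts in more than 2.

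Hoxc13, a posterior gene best known from hair and nail, came next with 43 counts. All were in KO-labelled libraries, 37 of them in replicate 1 and 6 in replicate 0, with 0 in KO replicate 2 and in the 3 Het-labelled libraries. In KO replicate 1 it reached 0.602 CPM, above the 0.228 CPM of Hoxb2 there. Per length the order was the same in that library, at 0.298 FPKM for Hoxc13 and 0.187 FPKM for Hoxb2.

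The other 5 genes had 15 counts or fewer. Hoxd8, a middle gene of the trunk, had 4 counts in Het replicate 0 and 11 in KO replicate 1. Hoxb3, an anterior gene next to Hoxb2 and known from the posterior arches and hindbrain, had 5 counts in each of KO replicates 1 and 2. Hoxc6, a middle gene of the thoracic region, had 8 counts, all in KO replicate 0. Hoxc8, a thoracic gene, had 1 count in Het replicate 1 and 2 in KO replicate 1. No gene of these 5 had counts in more than 1 Het-labelled library.

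Ordered by mean FPKM over 6 libraries, Hoxb2 was at 0.443 ± 0.341, Hoxc13 at 0.0572 ± 0.119, Hoxd8 at 0.0362 ± 0.0656, Hoxc6 at 0.0155 ± 0.0379, Hoxb3 at 0.00918 ± 0.0143 and Hoxc8 at 0.00430 ± 0.00670 (SD, n = 6). From Hoxc13 down, each standard deviation was larger than the mean, so neighbours in this order did not differ beyond their spread.

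In the comparison of KO-labelled libraries with Het-labelled ones, 0 of 14776 genes passed an adjusted p of 0.05 in edgeR's quasi-likelihood test (percent called 0), 636 (4.3%) had an unadjusted p under 0.05, and DESeq2 called 88 of 17069 (0.516%). Hoxb2 was not called by either tool. Without the filter edgeR called 0 of 17525 genes (percent called 0) and 0 of the 7 Hox genes with counts. Hoxc13 was the only one of the 7 with an unadjusted p under 0.05 in that fit (adjusted p = 0.877 in edgeR), where 4.86% of all genes had one. DESeq2 called 0 of the same 7, and 0 of them had an unadjusted p under 0.05 in it.

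Counts of the 6 sparse members lay mostly in KO-labelled libraries, 77 against 5. Of these 6 genes, 4 (Hoxb3, Hoxc6 and Hoxc13 among them) had counts in KO-labelled libraries only, 2 (Hoxc8 and Hoxd8) in both groups and 0 in Het-labelled libraries only. Among all 2242 rows with 1 to 50 counts in total, a range set after seeing the data, 39.2% had counts in KO-labelled libraries only and 15.5% in Het-labelled ones only; among all 17525 rows with a count these shares were 5.69% and 2.19%. The KO-labelled libraries also held 1.32 times the total count of Het-labelled ones.

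Hox genes with a count numbered 2, 2 and 1 in Het replicates 0 to 2 and 4, 5 and 2 in KO replicates 0 to 2, so the groups met at 2 genes. Scaled to the smallest library total, the expected numbers were 1.95, 2 and 1 against 3.87, 4.81 and 1.995. Summed over all members, the level was 0.191, 0.469 and 0.445 CPM in the Het-labelled libraries and 1.66, 1.12 and 0.696 CPM in KO-labelled ones. Every KO-labelled library lay above every Het-labelled library in this sum, a pattern also shown by 5.89% of the genes tested. The sum gets no test, since the members were chosen with results known.

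The means of the summed level were 0.368 ± 0.154 and 1.16 ± 0.4815 CPM (SD, n = 3 each). Hoxb2 made up 66.7%, 94.1% and 100% of the sum in Het replicates 0 to 2 and 83.3%, 20.3% and 86.5% in KO replicates 0 to 2. KO replicate 1 thus stood apart from the others in make-up, with Hoxc13 as its leading gene.

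**Figure D2:**
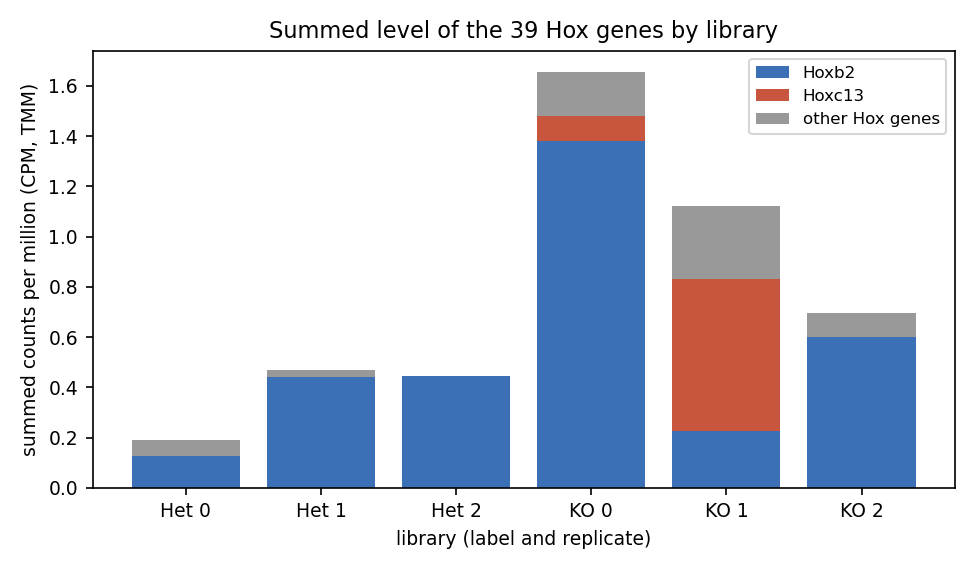
Summed CPM of the 39 Hox genes in each library, as stacked bars for Hoxb2, Hoxc13 and all others. Sums run from 0.191 to 0.469 CPM in the Het-labelled libraries and from 0.696 to 1.66 CPM in KO-labelled ones, and KO replicate 1 differs from the rest by its Hoxc13 part.

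Genes beside the clusters were in part well expressed. On the Hoxd side the mitochondrial import gene Mtx2, 60.7 kb from the nearest Hox gene, was at 67.1 ± 14.2 FPKM, and Lnp, 88.9 kb away on the other side, at 3.18 ± 1.13 FPKM. Beside Hoxa, the valine breakdown enzyme gene Hibadh was at 51.4 ± 5.86 and the adaptor gene Skap2 at 1.73 ± 0.387 FPKM. Beside Hoxc, Calcoco1 was at 27.9 ± 8.09 FPKM, and the heterochromatin protein gene Cbx5 was at 8.999 ± 2.71 FPKM (SD, n = 6).

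The 3 listed neighbours closest to a cluster had no count. The homeobox genes Evx1 and Evx2, which lie 52.6 and 8.75 kb beyond the posterior ends of Hoxa and Hoxd, were among them, with Ttll6 at 28.9 kb from Hoxb. Skap1 beside Hoxb had 30 counts in all, and Calcoco2 had 10. The lists held 15 such neighbours, of which 12 had counts and 10 passed the filter. Of those 10, 7 had higher and 3 lower fitted values and 0 were called. Their median log2 fold change was 0.04, against -0.01 over all genes tested. The smallest p belonged to Snx10 (log2 fold change 0.61) and Mtx2 (-0.21), both with an adjusted p of 0.971 in edgeR.

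**Figure D3:**
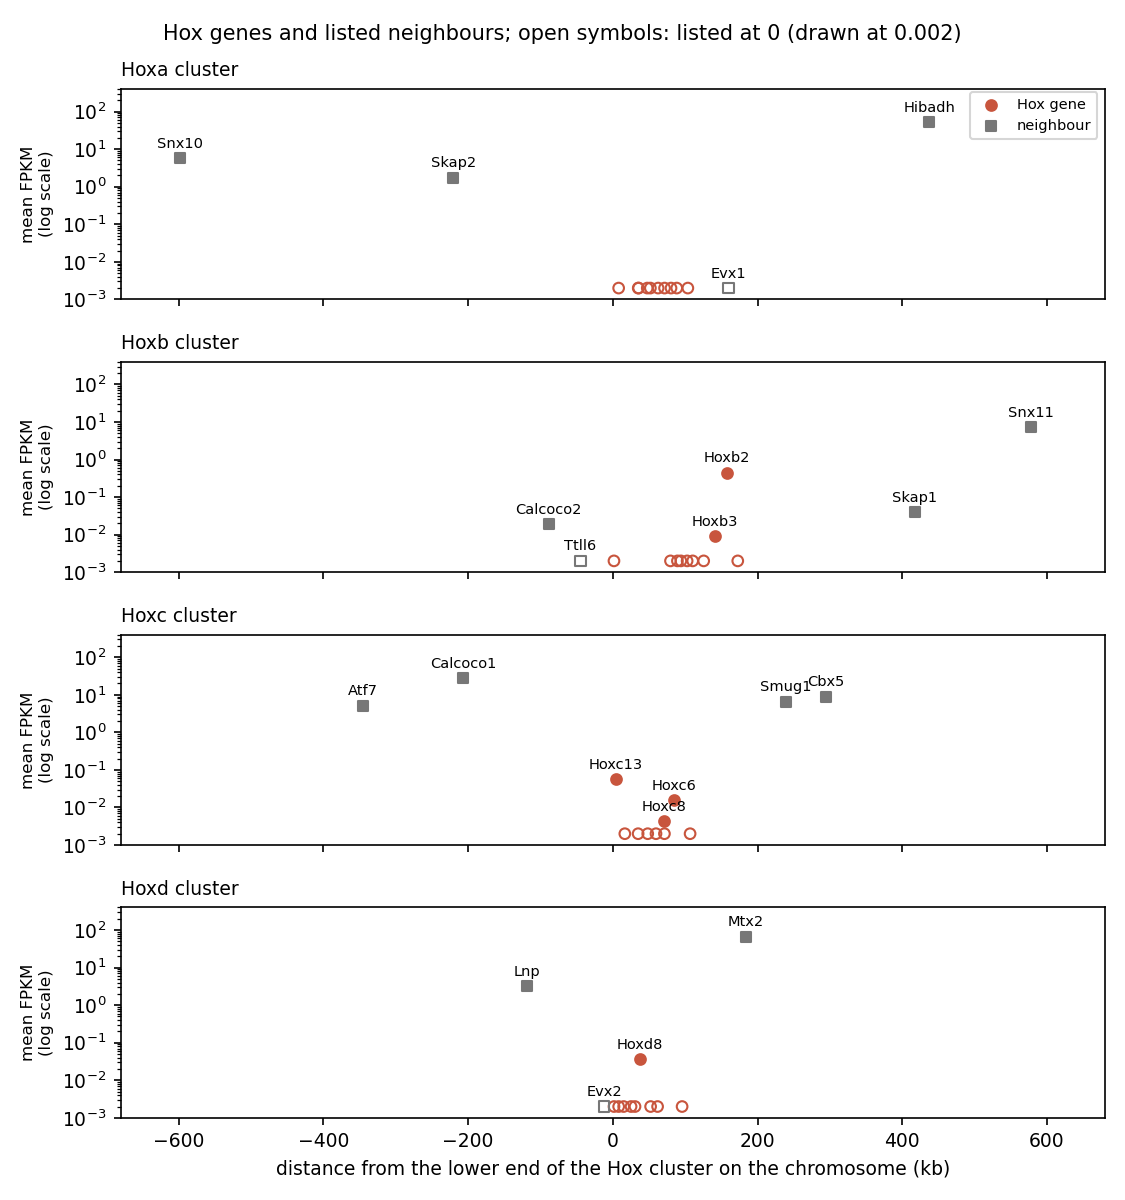
Mean FPKM over 6 libraries (log scale) of Hox genes (circles, 1 member not drawn) and listed neighbours (squares) against distance in kb from the lower end of each cluster on its chromosome; open symbols are genes listed at 0. Hoxb2 at 0.443 FPKM is the highest circle, while neighbours such as Mtx2 and Hibadh lie at 67.1 and 51.4 FPKM.

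Other homeobox genes were abundant in the same libraries. Of 26 genes listed for head and first-arch mesenchyme, 24 had counts. Barx1, a homeobox gene of molar mesenchyme, was at 677 ± 158 FPKM, the paired-type gene Prrx2 at 379 ± 99.9 and the crest transcription factor gene Twist1 at 165 ± 37.4 FPKM (SD, n = 6). Their mean FPKM were 1528, 856 and 373 times that of Hoxb2. The lower-jaw gene Dlx5 was at 133 FPKM, and Lhx6 and Lhx8, LIM homeobox genes of the oral mesenchyme, at 24.5 and 38.6 FPKM. Otx2, a gene of the forebrain and midbrain, and Hand2, a gene of the ventral arch, were at 0. Of 23 members tested, 9 had higher and 14 lower fitted values and 0 were called, and the median log2 fold change was -0.08. The smallest p belonged to Twist1 (log2 fold change -0.43) and Msx1 (-0.46), both with an adjusted p of 0.971 in edgeR.

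All 8 ParaHox and Evx genes listed, the relatives of the Hox clusters that pattern gut and neural tube, had no count: Gsx1, Gsx2, Pdx1, Cdx1, Cdx2, Cdx4, Evx1 and Evx2. The Cdx genes are known activators of trunk Hox genes.

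Cofactors of Hox proteins were detected. All 9 genes of the Pbx, Meis and Pknox families had counts and passed the filter. Meis3 was at 50.8 ± 16.45 FPKM and Pknox1 at 8.03 ± 1.64 FPKM (SD, n = 6), while Meis1 and Meis2 were at 0.452 and 0.382 FPKM, near the level of Hoxb2. Meis3 was at 96.9 ± 15.6 CPM in the Het-labelled libraries and 67.2 ± 8.475 CPM in KO-labelled ones (SD, n = 3), a log2 fold change of -0.53 that did not pass in edgeR (adjusted p = 0.971). Pbx2 came next by p, at 18.55 ± 7.495 and 11.5 ± 2.06 CPM (adjusted p = 0.971 in edgeR). Of the 9, 3 had higher and 6 lower fitted values, 0 were called, and the median was -0.14.

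Regulators known to hold Hox genes off (Polycomb) or on (trithorax) were all expressed. Of 23 genes, 23 passed the filter, with 11 higher, 12 lower, 0 called and a median log2 fold change of -0.00095. The histone-binding subunit gene Rbbp7 was at 212 ± 37.7 FPKM, Phc2 of Polycomb complex PRC1 at 92.3 ± 18.1 and the trithorax-type subunit gene Ash2l at 51.7 ± 8.45 FPKM. The smallest p belonged to the Polycomb genes Cbx2 (log2 fold change 0.58) and Cbx8 (-0.56), both with an adjusted p of 0.971 in edgeR.

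Retinoic acid, made by Aldh1a enzymes and broken down by Cyp26 enzymes, induces anterior Hox genes through Rar receptors, and Egr2 drives Hox genes in the hindbrain. All 16 genes of this list passed the filter. Cyp26a1 was at 104 ± 62.9, Aldh1a3 at 86.2 ± 16.2 and Crabp1, a retinoic acid binding protein gene, at 79.6 ± 41.9 FPKM. Egr2, a known inducer of Hoxb2, was at 16.8 FPKM. Of the 16, 8 had higher and 8 lower fitted values, 0 were called and the median was -0.04. Aldh1a3 was at 263 ± 26.6 CPM in the KO-labelled libraries and 346 ± 18.0 CPM in Het-labelled ones, and Crabp2 at 38.3 ± 4.28 against 64.55 ± 33.4 CPM; neither passed in edgeR (adjusted p = 0.971 for both).

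**Figure D4:**
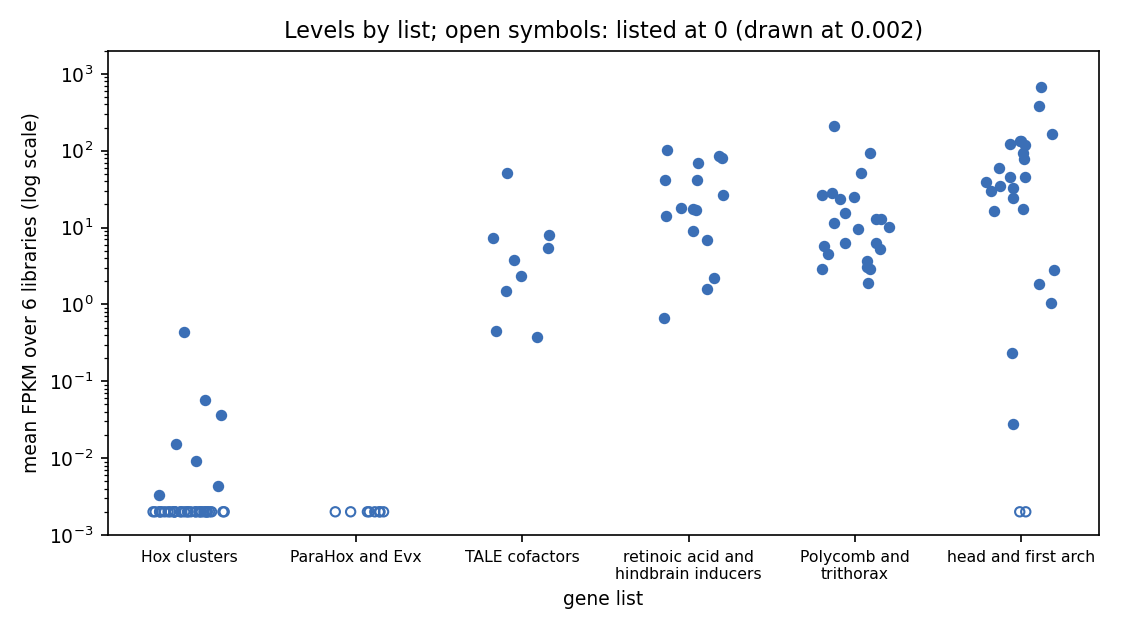
Mean FPKM over 6 libraries (log scale) of every gene in the Hox clusters and in 5 lists, 1 point a gene, with open symbols for genes listed at 0. Points of the Hox column end at 0.443 FPKM and 32 of 39 are open, whereas the lists of cofactors, retinoic acid genes and chromatin regulators have no open point.

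A sort can hold other cells, some of which carry Hox transcripts, so markers of 8 other cell types were summed in each library. Leukocyte and macrophage markers, 11 of 12 with counts and T cell marker Cd3e at 0, summed to 23.6, 106 and 55.7 CPM in Het replicates 0 to 2 and to 32.8, 111 and 164 CPM in KO replicates 0 to 2. Neutrophil and blood progenitor markers, 12 of 12 with counts, summed to 154, 763 and 524 against 213, 320.5 and 394 CPM. Erythroid markers, 7 of 7, summed to 37.6, 124 and 96.8 against 70.5, 144 and 176 CPM.

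Endothelial markers, 10 of 10, summed to 24.6, 27.25 and 49.1 CPM in the Het-labelled libraries and 14.6, 24.2 and 22.4 CPM in KO-labelled ones. Muscle markers, 7 of 10 with Myod1, Myf6 and Pax7 at 0, summed to 3.21, 3.97 and 8.51 against 2.84, 2.31 and 3.52 CPM. Schwann and nerve markers, 9 of 10 with counts, summed to 99.85, 73.5 and 37.2 against 91.7, 87.7 and 102 CPM. Osteoclast markers, 4 of 8 with Oscar, Dcstamp, Ocstamp and Atp6v0d2 at 0, summed to 225.8, 241.6 and 206 against 289.6, 213 and 218.6 CPM. Epithelial markers, 11 of 11, summed to 8561, 8702 and 5831 against 9101, 5505 and 11260 CPM. Single genes carried much of some sums. In Het replicate 0, Tubb3 gave 78.45 CPM of the Schwann and nerve sum and Ctsk 178.9 CPM of the osteoclast sum. Kit gave 125.1 CPM of the neutrophil and progenitor sum there. The Schwann cell gene Sox10 had 2 counts, in Het replicate 2 only. The sums are therefore not measures of how many such cells were present. The part of other cell types in the Hox counts was not tested.

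In the comparison of the libraries, 0 members of any marker list were called in edgeR. Among all 14776 genes tested, 0 were called, 7238 had higher fitted values in the KO-labelled libraries and the median log2 fold change was -0.01. Markers within a list are not independent observations. Fitted values were higher in the KO-labelled libraries for 11 of 11 leukocyte markers tested (median log2 fold change 1.11), 4 of 10 neutrophil and progenitor (-0.08), 4 of 6 erythroid (0.54), 2 of 9 endothelial (-0.53), 0 of 2 muscle (-1.002), 4 of 7 Schwann and nerve (0.54), 4 of 11 epithelial (-0.08), 2 of 3 osteoclast (0.14) and 5 of 11 follicle markers (-0.05).

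The most abundant markers per length were Lyz2 (51.3 FPKM), Tyrobp (8.87) and Laptm5 (5.34) for leukocytes, Ngp (72.0), S100a8 (53.2) and Camp (33.45) for neutrophils, and Hba-a1 (206), Alas2 (8.66) and Epor (5.92 FPKM) for erythroid cells. They were Egfl7 (14.9 FPKM), Esam (1.35) and Kdr (0.925) for endothelium, Mylpf (4.34), Tnnt3 (1.14) and Ckm (0.170) for muscle, and Tubb3 (37.2), Ngfr (3.74) and Mbp (3.51 FPKM) for Schwann cells and nerve. They were Ctsk (116.5 FPKM), Acp5 (28.8) and Mmp9 (11.8) for osteoclasts and Amelx (3942), Ambn (1907) and Odam (357 FPKM) for epithelium.

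The markers with the smallest p in edgeR, after those already named, were Emr1 and Cd52 for leukocytes, Mpo and Prtn3 for neutrophils and Pecam1 for endothelium, with adjusted p from 0.698 for Mpo to 0.971 for the others. Mpo, a neutrophil precursor gene, had 22, 8192 and 1867 counts in the Het-labelled libraries and 65, 19 and 53 in the KO-labelled ones. Follicle markers summed to 10150, 11050 and 12220 CPM in the Het-labelled libraries and 9724, 9326 and 7990 CPM in the KO-labelled ones. Aspn, a matrix gene of the follicle, had the smallest p of that list, at 120.7 ± 34.6 and 52.4 ± 11.95 CPM (adjusted p = 0.663 in edgeR). Of the 11 genes in that list, 5 had an unadjusted p under 0.05 in edgeR, against 4.3% of all genes tested. Among these, Pth1r was higher in the KO-labelled libraries and the rest, with Aspn, Igfbp5 and Acta2 among them, were lower. The list was chosen with earlier results known.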

How the data were processed

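The submitters' processing notes name the build mm10 and, without roles, HTSeq, Cufflinks, Cuffdiff, DESeq2, FastQC, Bowtie2 2.2.1 and TopHat2 2.0.13. Per the labels' protocols, the kits were PicoPure for RNA, SMART-Seq for cDNA and Nextera XT for libraries. The deposited estimated counts (23107 symbols, rows at 0 kept) were rounded, since 1.66% of values differed from a whole number by more than 1e-06; no Hox value did. A deposited table of whole-number counts (17213 symbols, 7 of them Hox) and the authors' FPKM table served as alternatives, and FPKM also for levels between genes. Deposited tables of scaled counts and regularised logarithms were not used.

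Counts were tested in R 4.3.3 with edgeR 4.0.16 (quasi-likelihood, TMM, filterByExpr with a minimum count of 10), two-sided, with Benjamini-Hochberg adjustment over 14776 genes and a threshold of 0.05. Standard errors came from the F statistic. The script was tested on simulated data. Alternatives used DESeq2 1.42.0 and limma 3.58.1. Gene positions came from GENCODE M21 (same assembly as mm10), which held 89.8% of the symbols. Each titled library was 1 sample; all pairs differed by more than sampling noise (smallest chi-square over its degrees of freedom, 94.1).

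The members, lists and tests were chosen with earlier results of these data known. Members were named; from each list, up to 3 genes with the highest mean FPKM and up to 2 with the smallest p were named. Other genes (such as Dlx5, Lhx6, Lhx8, Egr2, Meis1, Meis2, Lnp, Skap1, Skap2, Calcoco2 and Cbx5) were added for position or known role after their values were seen. A few genes that these rules name, 1 Hox member among them, are not reported here by name.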

Additional observations from a re-analysis of the deposited data

How the results depend on the processing

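No Hox gene was called under any of the 17 alternatives, although only Hoxb2, or none, passed the filters in most of them. Its fold change stayed positive and short of the threshold in all 14 alternatives that gave it a value, from 0.29 (log2(FPKM + 1), a scale that understates low genes) to 1.72 (limma-voom with quality weights), with adjusted p from 0.853 to 0.9998. With the replicate block it was 0.88. Replicate numbers were not taken as pairs, since no label says that they mark a litter or batch. Deviations of same-numbered libraries did correlate, at 0.172, 0.0719 and 0.0738, against -0.12 to 0.0303 for other combinations. Each library correlated best with its own number, so pairs by number are possible. The block left 0 genes called, as did the main fit. Over all genes, DESeq2 called 88, and 1 gene was called in limma-voom, in each of the 3 limma-trend fits of FPKM and at a threshold of 0.1. With each library left out in turn, 0 genes were called.

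With at least 10 counts required, 3 Hox genes (Hoxb2, Hoxc13 and Hoxd8) passed in any library and 0 in all 6. The log2 ratio of group means of the summed Hox level was 1.65, from 1.30 to 1.92 with each library left out. Chosen after seeing the data, it was 1.33 without Hoxc13 and 3.79 without Hoxb2, where the Het-labelled libraries held only 5 counts. Scaled to the smallest library total, 6.88 of the 7 Hox genes with a count were expected to keep one.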
